A study of Mus musculus with 8 samples.

Results

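Collagens are secreted proteins of 3 chains wound into a triple helix, and they make up most of the fibres and part of the sheets of the extracellular matrix. The genes described here are those of the deposited table with a collagen symbol other than Col4a1 and Col4a2, the chains of the type IV network in every basal lamina. The rule took 41 of the 23235 genes of the table. It used the symbol and no measured value. Of the 41 genes, 20 had at least 1 FPKM in at least 2 libraries and were tested, and 21 did not. FPKM is a level scaled to transcript length and library size, so levels can be compared roughly between genes and between libraries. It does not adjust for differences in RNA make-up between libraries, and rescaling the libraries moved the medians, as given near the end.

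The libraries were made from granulosa cells of the mouse ovary, which enclose the oocyte and feed the growing follicle, of female C57BL/6 animals. The 4 groups were CNOT6/6L KO cells 44 h after PMSG, untreated KO cells (0 h), WT cells 44 h after PMSG and untreated WT cells (0 h), with 2 libraries per group. CNOT6 and CNOT6L are deadenylases of the CCR4-NOT complex, which shortens mRNA tails, and PMSG is a gonadotropin that drives follicle growth. Deletion design, age and dose were not in the labels, nor whether replicates were separate animals. The p-values thus reflect spread between libraries, possibly technical in part.

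Collagens of the follicle fall into classes with different places in the tissue. Fibrillar collagens include types I, III, V, XI and XXVII. Types I, III and V form the fibres of theca and stroma, the layers outside the follicle's basal lamina. Types V and XI set the thickness of the fibres they join. Type VI collagen forms beaded filaments around cells, FACIT collagens sit on the surface of fibrils, and types XV and XVIII lie in the zone next to basement membranes. Col4a3, Col4a4, Col4a5 and Col4a6 encode further type IV chains, which are basement membrane components in kidney and other tissues. A label of collagens outside the basal lamina therefore does not suit every gene that the rule took.

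All 8 libraries held granulosa cell transcripts at high levels: Inha, an inhibin subunit, lay between 8434 and 23238 FPKM, and Fshr, the FSH receptor, between 33.6 and 154 FPKM. Defining markers of other cells were present as well. The thecal enzyme Cyp17a1 lay between 1.95 and 137 FPKM. Zp3, an oocyte coat protein, lay between 158 and 821 FPKM and was above Fshr in every library. The collagens together summed to 71.1 and 135 FPKM in KO cells at 44 h, 144 and 96.1 FPKM in KO cells at 0 h, 128 and 139 FPKM in WT cells at 44 h, and 84.0 and 119 FPKM in WT cells at 0 h. The relative depth of the libraries, read from the steps between low FPKM values, was 0.904 to 1.25. Cnot6 was at 26.7 and 17.4 FPKM in KO and 26.0 and 26.9 FPKM in WT at 44 h, and at 11.7 and 12.01 FPKM in KO and 29.1 and 18.4 FPKM in WT at 0 h. For Cnot6l the values at 44 h were 2.01 and 1.61 FPKM in KO, against 4.20 and 2.63 FPKM in WT; untreated, they were 4.69 and 1.97 FPKM in KO, against 6.11 and 7.07 FPKM in WT. KO replicate 1 at 44 h stood apart from the other libraries of that time. Its Cyp11a1, the enzyme that starts steroid synthesis, was at 129 FPKM, against 2508 FPKM in KO replicate 2 and 4451 and 4339 FPKM in WT cells at 44 h. Collagen medians of the comparisons that use this library are therefore given with and without it. Some counts, and the medians and counts of other gene lists, are given with it only.

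Both directions of the time comparison in WT had members with promoter sequence in RefSeq's GRCm38.p6 table, which is a later build than the mm9 build of the submitters' notes. The 150 bases before the start of 4 genes are shown because Col3a1 and Col1a2 lay higher, and Col9a2 and Col11a1 lower, in WT cells at 44 h than at 0 h. These 4 were chosen after their values were seen. Col3a1 is at chr1:45311388-45311537, Col1a2 at chr6:4505468-4505617, Col9a2 at chr4:121039416-121039565 and Col11a1 at chr3:114030390-114030539, all on the + strand, and each line runs 5′ to 3′. Capitals mark the TATA box letters TATAAA, the CCAAT box letters that give it its name, the GC box letters GGGCGG and a site of the NR5A nuclear receptors, AAGGTCA, each read on either strand.
Col3a1: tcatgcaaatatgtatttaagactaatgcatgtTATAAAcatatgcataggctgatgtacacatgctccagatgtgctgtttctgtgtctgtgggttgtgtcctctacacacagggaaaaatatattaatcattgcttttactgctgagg
Col1a2: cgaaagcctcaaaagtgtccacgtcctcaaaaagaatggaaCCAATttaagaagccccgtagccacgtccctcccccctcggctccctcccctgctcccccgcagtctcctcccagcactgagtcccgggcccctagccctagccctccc
Col9a2: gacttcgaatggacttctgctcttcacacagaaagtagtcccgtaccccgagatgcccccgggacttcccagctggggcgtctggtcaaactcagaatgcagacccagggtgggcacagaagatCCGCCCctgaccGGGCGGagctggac
Col11a1: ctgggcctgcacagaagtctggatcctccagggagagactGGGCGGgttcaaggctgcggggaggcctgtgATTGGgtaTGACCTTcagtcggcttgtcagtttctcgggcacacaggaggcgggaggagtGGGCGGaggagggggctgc

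The Col3a1 stretch held the TATA box letters, in its part farther from the start, and was 37.3% G and C. The Col1a2 stretch held a CCAAT box and was 62.7% G and C. The Col9a2 stretch held GC boxes on both strands, and the Col11a1 stretch held GC boxes, a CCAAT box and an NR5A site. Promoters of 33 of the 41 collagens were in the table. The TATA box letters stood anywhere in the 150 bases of 4 of the 33 and in 7.57% of all 32851 promoters of the table. A CCAAT box stood in 6 of the 33 and in 24.5% of all. A GC box stood in 18 of the 33 and in 28.6% of all, and the NR5A letters in 4 of the 33 and in 2.31% of all. The forkhead letters GTAAACA were in 0 of the 33 and in 1.80% of all, and the cAMP response motif TGACG was in 3 of the 33 and in 13.3% of all, both searched on both strands. Such matches describe letters and do not show binding.

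Types I, III and VI led the collagen levels. Over the 8 libraries Col6a1 averaged 18.1 FPKM, Col1a2 15.6, Col3a1 14.9, Col1a1 14.4 and Col6a2 8.97 FPKM, followed by Col9a2 at 7.07 and Col11a1 at 6.30 FPKM. The ranges of the first 4 over the libraries overlapped, so their order is not firm. Fibrillar collagens made up 40.0% to 57.3% of the collagen sum of a library, and type VI chains 24.1% to 33.3%. Of the 20 genes that passed the filter, 7 averaged at least 5 FPKM, 10 lay between 1 and 5 FPKM and 3 lay under 1 FPKM.

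**Figure D1:**
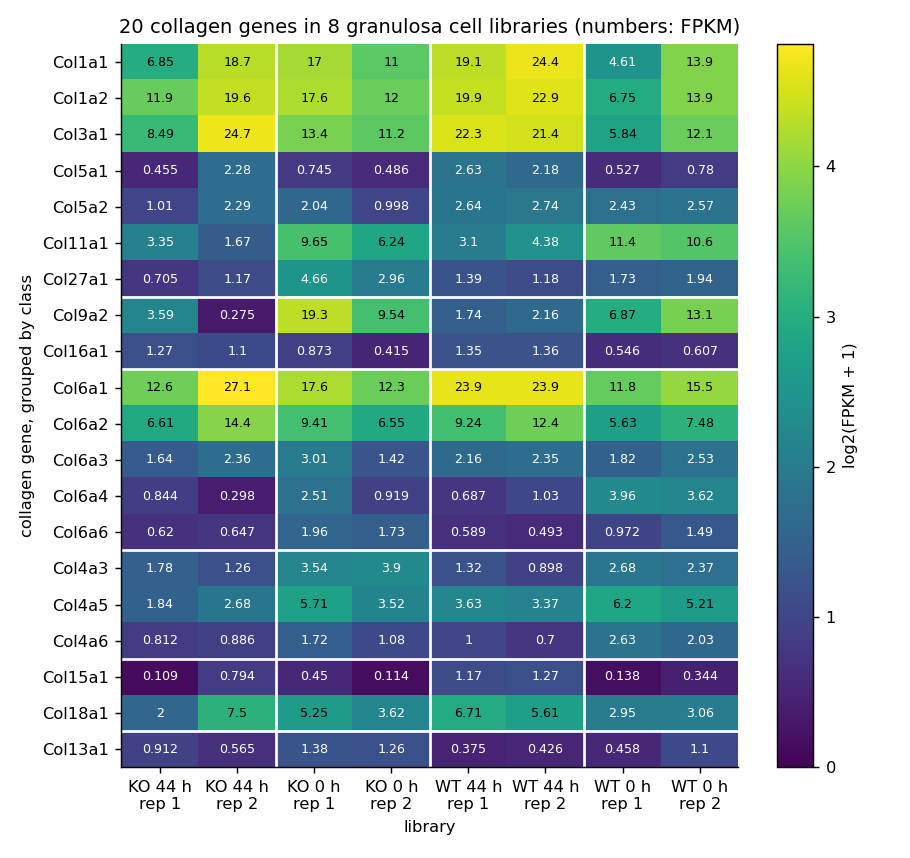
Level of the 20 collagen genes that passed the filter (rows, grouped as fibrillar, FACIT, beaded filament, network, multiplexin and transmembrane) in each of the 8 libraries (columns). Colour is log2(FPKM + 1) and the number in each field is the FPKM; Col1a1, Col1a2, Col3a1 and Col6a1 form the bright rows, and the KO 44 h replicate 1 column is dimmer there (6.85 to 12.6 FPKM) than the other 44 h columns (18.7 to 27.1 FPKM).

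Chains that share a trimer kept near ratios in some types and not in others. Type I collagen is built of both Col1a1 and Col1a2 chains, and the FPKM of Col1a1 was 0.575 to 1.06 times that of Col1a2, with the lowest ratio in KO replicate 1 at 44 h. Col6a1 stood at 1.87 to 2.58 times Col6a2 in every library. By contrast the type IX chain Col9a2 ranged between 0.275 and 19.3 FPKM, while its partner chains stayed low, Col9a3 between 0.206 and 0.661 FPKM and Col9a1 between 0 and 0.158 FPKM. Col2a1, the cartilage collagen whose fibrils type IX decorates and type XI joins, did not exceed 0.0746 FPKM. Col11a2, the second type XI chain, did not exceed 0.0588 FPKM, against 1.67 to 11.4 FPKM for Col11a1.

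The 44 h and 0 h cells were compared first, a question of what the gonadotropin's 44 h were accompanied by in each genotype. In WT cells type I and III chains, the type V chain Col5a1 and the type VI chains Col6a1 and Col6a2 stood higher at 44 h. Col9a2, Col11a1 and the Col4a3, Col4a5 and Col4a6 chains stood lower, and the type V chain Col5a2 differed little. Classes held both directions: of the tested fibrillar collagens 5 had a higher mean in WT at 44 h and 2 (Col11a1 and Col27a1) a lower one, of the beaded filament chains 3 and 2, and of the FACITs 1 (Col16a1) and 1 (Col9a2). In KO cells the lower set was again lower in both libraries, whereas the higher set, apart from Col16a1, was higher in replicate 2 only. None of these differences passed the test over all genes.

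In limma's fit over all 8 libraries on log2(FPKM + 1), 0 of the 20 collagens passed an adjusted p under 0.05 in WT cells, where 0.0804% of all 13688 tested genes passed, and 0 passed in KO cells, where 0.139% of all passed. At an unadjusted p under 0.05 there were 11 collagens in WT, beside 3301 of all 13688 tested genes. In KO there were 6 collagens at that threshold, beside 2884 of all. Col5a1, Col6a6, Col15a1 and Col16a1 were among the 11 in WT, and Col6a6 among the 6 in KO. These genes passed the filter only through the time at which they were high. Their part in these counts is therefore no support for a difference. The smallest adjusted p was 0.102 in WT (Col11a1) and 0.0953 in KO (Col27a1). The median collagen differed by -0.17 (log2) between 44 h and 0 h in KO, against -0.11 over all tested genes, and by 0.06 in WT, against -0.13 over all tested genes. Single libraries turned these medians: the KO one was 0.24 with replicate 1 of the 44 h libraries left out and 0.09 with replicate 1 of the 0 h libraries left out, and the WT one was -0.03 with replicate 1 of the 0 h libraries left out.

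Counted by library, 10 of the 20 collagens lay higher in both WT libraries at 44 h than in both WT libraries at 0 h, against 22.5% of all tested genes, and 9 lay lower, against 40.6% of all. In KO 1 of the 20 lay higher in both libraries at 44 h, against 14.3% of all, and 9 lay lower, against 34.1% of all. The 9 lower ones were the same genes in both genotypes: Col4a3, Col4a5, Col4a6, Col6a4, Col6a6, Col9a2, Col11a1, Col13a1 and Col27a1. Of all tested genes 25.4% were lower in both genotypes in this way, and 9.18% were higher in both, as 1 collagen (Col16a1) was. Col5a1, Col15a1 and Col16a1 reached 1 FPKM only in libraries at 44 h, and Col6a6 and Col13a1 only at 0 h. These genes passed the filter only through the time at which they were high. Their place in the counts is therefore a description and no support for a difference. The same holds for any test of these genes between the times.

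The type I and III chains had the largest differences of the higher set in WT. Col1a1 was at 6.85 and 18.7 FPKM in KO cells at 44 h and 17.01 and 11.02 FPKM at 0 h, and at 19.1 and 24.4 FPKM in WT cells at 44 h and 4.61 and 13.9 FPKM at 0 h. In WT the libraries of the 2 times did not overlap, and in KO they did. The difference was -0.24 (log2, SE 0.565, limma adjusted p = 0.841) in KO and 1.30 (SE 0.565, adjusted p = 0.215) in WT. Col3a1 was at 8.49 and 24.7 FPKM in KO cells at 44 h and 13.4 and 11.2 FPKM at 0 h, and at 22.3 and 21.4 FPKM in WT cells at 44 h and 5.84 and 12.1 FPKM at 0 h. It differed by 0.24 (SE 0.483, adjusted p = 0.812) in KO and by 1.28 (SE 0.483, adjusted p = 0.173) in WT. Col1a2 was at 11.9 and 19.6 FPKM in KO at 44 h and 17.6 and 12.05 FPKM at 0 h, and at 19.9 and 22.9 FPKM in WT cells at 44 h and 6.75 and 13.9 FPKM at 0 h. All 3 genes thus had KO replicate 1 at 44 h below both KO libraries at 0 h and KO replicate 2 above both. Without replicate 1 the KO difference was 0.42 for Col1a1 and 0.96 for Col3a1, and without replicate 2 it was -0.91 and -0.48, so its sign turned with the library left out.

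Type V chains, which start type I fibrils, split between them. Col5a1 was at 0.455 and 2.28 FPKM in KO cells at 44 h and 0.745 and 0.486 FPKM at 0 h, and at 2.63 and 2.18 FPKM in WT cells at 44 h and 0.527 and 0.780 FPKM at 0 h, a difference of 0.44 (SE 0.373, limma adjusted p = 0.528) in KO and 1.04 (SE 0.373, adjusted p = 0.159) in WT. Its partner Col5a2 was at 1.01 and 2.29 FPKM in KO cells at 44 h and 2.04 and 0.998 FPKM at 0 h, a difference of 0.06 (SE 0.306). Without KO replicate 1 at 44 h these KO differences were 1.03 for Col5a1 and 0.41 for Col5a2, and without replicate 2 they were -0.15 and -0.29. In WT Col5a2 was at 2.64 and 2.74 FPKM in WT cells at 44 h and 2.43 and 2.57 FPKM at 0 h, a difference of 0.08 (SE 0.306). The ratio of Col5a2 to Col5a1 was 2.23 and 1.00 in KO at 44 h and 2.74 and 2.05 at 0 h, and 1.00 and 1.26 in WT at 44 h and 4.62 and 3.29 at 0 h. That ratio did not overlap between the times in WT. Its Col5a1 part passed the filter only through libraries at 44 h, so this is a description.

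Type VI filament chains were in both sets. Col6a1 was at 12.6 and 27.1 FPKM in KO cells at 44 h and 17.6 and 12.3 FPKM at 0 h. In WT cells it averaged 23.9 ± 0.0407 FPKM at 44 h and 13.7 ± 2.59 FPKM at 0 h (SD, n = 2 each), a difference of 0.77 (log2, SE 0.353). Col6a2 was at 6.61 and 14.4 FPKM in KO at 44 h and 9.41 and 6.55 FPKM at 0 h, and at 9.24 and 12.4 FPKM in WT cells at 44 h and 5.63 and 7.48 FPKM at 0 h. The chain Col6a3 stayed between 1.42 and 3.01 FPKM in all libraries. Col6a4 and Col6a6, chains of the same family as Col6a3, were in the lower set. Col6a4 was at 0.844 and 0.298 FPKM in KO at 44 h and 2.51 and 0.919 FPKM at 0 h, and at 0.687 and 1.03 FPKM in WT cells at 44 h and 3.96 and 3.62 FPKM at 0 h. Col6a6 averaged 0.634 ± 0.0193 FPKM in KO at 44 h and 1.85 ± 0.159 FPKM at 0 h, and 0.541 ± 0.0684 FPKM in WT cells at 44 h and 1.23 ± 0.369 FPKM at 0 h (SD, n = 2 each).

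Col9a2, a chain of the FACIT type IX collagen known from cartilage, had the widest spread. It was at 3.59 and 0.275 FPKM in KO cells at 44 h and 19.3 and 9.54 FPKM at 0 h, and at 1.74 and 2.16 FPKM in WT cells at 44 h and 6.87 and 13.1 FPKM at 0 h. All 4 libraries at 44 h lay below all 4 at 0 h. The difference was -2.60 (log2, SE 0.621, limma adjusted p = 0.113) in KO and -1.84 (SE 0.621, adjusted p = 0.146) in WT. Col11a1, a type XI chain, was at 3.35 and 1.67 FPKM in KO at 44 h and 9.65 and 6.24 FPKM at 0 h, and at 3.10 and 4.38 FPKM in WT cells at 44 h and 11.4 and 10.6 FPKM at 0 h. It too had no overlap between the times, and differed by -1.37 (SE 0.312, adjusted p = 0.113) in KO and -1.35 (SE 0.312, adjusted p = 0.102) in WT. Over the 8 libraries, 6 of the 20 collagens (Col4a3, Col4a6, Col6a6, Col9a2, Col11a1 and Col27a1) lay lower in all 4 libraries at 44 h than in all 4 at 0 h, against 13.3% of all tested genes. Only Col16a1 lay higher in all 4, against 5.98% of all. Col6a6 and Col16a1 passed the filter only through the time at which they were high.

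**Figure D2:**
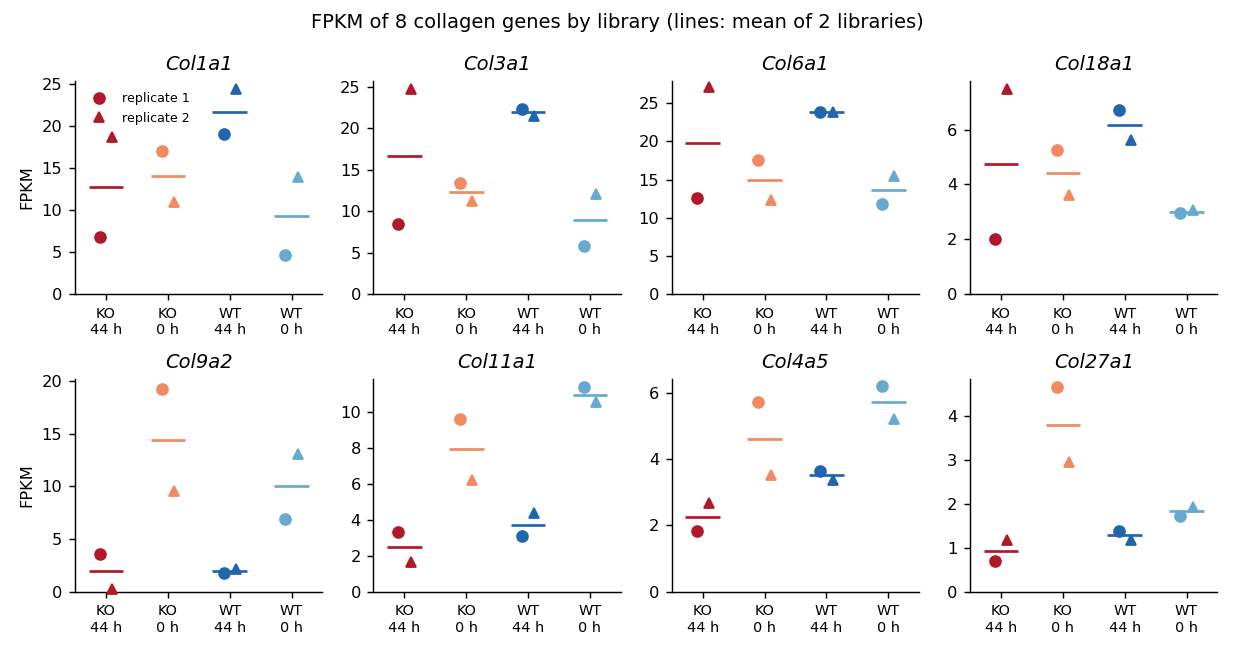
FPKM of 8 collagen genes in each library, by group; circles are replicate 1, triangles replicate 2 and lines the mean of the 2 libraries, on linear axes from 0. In the top row KO replicate 1 at 44 h sits far below KO replicate 2 (Col3a1 8.49 against 24.7 FPKM); in the bottom row both libraries of each genotype at 44 h sit below both at 0 h.

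The type IV chains outside the ubiquitous pair were in the lower set as well. Col4a5 was at 1.84 and 2.68 FPKM in KO cells at 44 h and 5.71 and 3.52 FPKM at 0 h, and at 3.63 and 3.37 FPKM in WT cells at 44 h and 6.20 and 5.21 FPKM at 0 h. Col4a3 averaged 1.52 ± 0.369 FPKM in KO at 44 h and 3.72 ± 0.257 FPKM at 0 h, and 1.11 ± 0.300 FPKM in WT cells at 44 h and 2.53 ± 0.224 FPKM at 0 h (SD, n = 2 each). Col4a6 was 0.849 ± 0.0524 FPKM in KO at 44 h and 1.40 ± 0.453 FPKM at 0 h, and 0.851 ± 0.212 FPKM in WT cells at 44 h and 2.33 ± 0.418 FPKM at 0 h. Col4a1, the ubiquitous chain left out of the rule, was at 2.66 and 10.6 FPKM in KO at 44 h and 5.57 and 1.92 FPKM at 0 h, and at 19.4 and 12.01 FPKM in WT cells at 44 h and 2.80 and 3.55 FPKM at 0 h. The ratio of Col4a5 to Col4a1 was 0.690 and 0.252 in KO at 44 h and 1.02 and 1.83 at 0 h, and 0.188 and 0.281 in WT at 44 h and 2.21 and 1.47 at 0 h. All 4 ratios at 44 h lay below all 4 at 0 h, and this ratio was chosen after its values were seen.

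The multiplexins, sources of the anti-angiogenic fragments endostatin and restin, were in the WT higher set. Col18a1 was at 1.999 and 7.50 FPKM in KO cells at 44 h and 5.25 and 3.62 FPKM at 0 h, and at 6.71 and 5.61 FPKM in WT cells at 44 h and 2.95 and 3.06 FPKM at 0 h. Col15a1 was at 0.109 and 0.794 FPKM in KO at 44 h and 0.450 and 0.114 FPKM at 0 h, and at 1.17 and 1.27 FPKM in WT cells at 44 h and 0.138 and 0.344 FPKM at 0 h. The FACIT Col16a1 was at 1.27 and 1.10 FPKM in KO at 44 h and 0.873 and 0.415 FPKM at 0 h, and 1.35 and 1.36 FPKM in WT cells at 44 h and 0.546 and 0.607 FPKM at 0 h. Col16a1 was the one collagen higher at 44 h in both libraries of both genotypes. Col13a1, a transmembrane collagen, was at 0.912 and 0.565 FPKM in KO at 44 h and 1.38 and 1.26 FPKM at 0 h, and at 0.375 and 0.426 FPKM in WT cells at 44 h and 0.458 and 1.10 FPKM at 0 h.

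**Figure D3:**
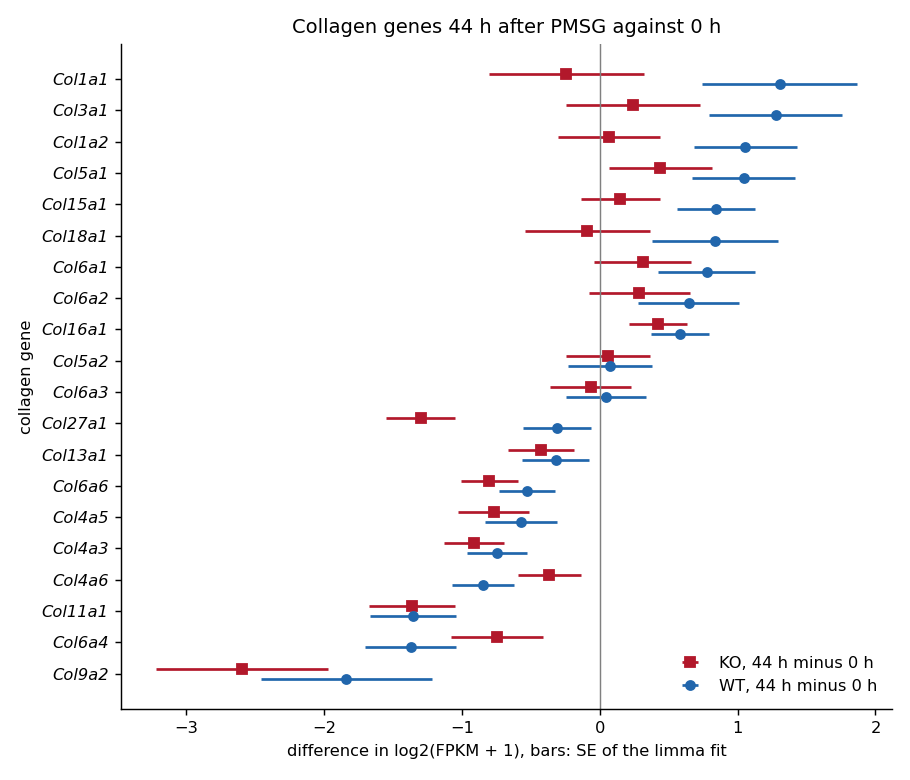
Difference in log2(FPKM + 1) between 44 h and 0 h for the 20 tested collagens, in KO (squares) and WT (circles), with the SE of the limma fit as bars. The highest WT point is at 1.30 (Col1a1), where the KO point is at -0.24, and at the bottom both genotypes lie below 0, down to -2.60 in KO and -1.84 in WT (Col9a2).

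The KO libraries at 44 h disagreed in direction on the higher set and not on the lower one. Of the 10 collagens that were higher in WT, KO replicate 1 was above both KO libraries at 0 h for 1 (Col16a1), against 48.9% of all genes higher in WT in this way, and below both for 6, against 26% of such genes. KO replicate 2 was above both for all 10, against 79.6% of such genes, and below both for 0, against 6.05%. Of the 9 collagens that were lower in WT, replicate 1 was below both KO libraries at 0 h for all 9, against 72.6% of all genes lower in WT in this way. Replicate 2 was also below both for all 9, against 80.6%. Of the higher set Col5a1, Col15a1 and Col16a1, and of the lower set Col6a6 and Col13a1, passed the filter only through the time at which they were high. Their part in these counts is a description. Relative to the KO mean at 0 h, Col1a1 lay at -0.91 (log2) in replicate 1 and 0.42 in replicate 2, Col18a1 at -0.84 and 0.66, and Col6a1 at -0.21 and 0.84.

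**Figure D4:**
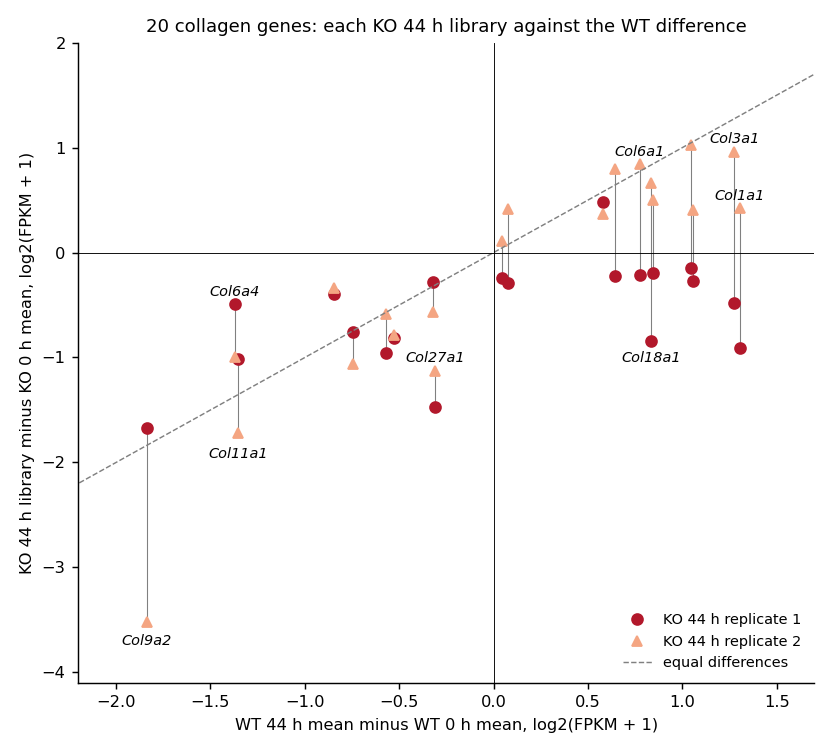
Each of the 20 tested collagens as a pair of points joined by a line: KO replicate 1 (circle) and replicate 2 (triangle) at 44 h minus the KO 0 h mean (vertical axis) against the WT 44 h mean minus the WT 0 h mean (horizontal axis), all in log2(FPKM + 1). At the left both points lie below 0; at the right the triangles lie above 0 and the circles below it for all but Col16a1.

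Without KO replicate 1 at 44 h, limma passed 3 collagens as lower at 44 h in KO, with the lone KO library assumed to vary like the other groups. These were Col9a2 (-3.52, adjusted p = 0.0130), Col11a1 (-1.72, adjusted p = 0.0273) and Col4a3 (-1.06, adjusted p = 0.0494), and 8.54% of all genes passed. The Col9a2 value then rests on the 0.275 FPKM of replicate 2 alone at 44 h. The same fit passed 5 collagens in the WT comparison, in which 9.74% of all genes passed. Col3a1 (1.28, adjusted p = 0.0484) and Col5a1 (1.04, adjusted p = 0.0342) were higher, and Col6a4 (-1.37, adjusted p = 0.0436), Col9a2 (-1.84, adjusted p = 0.0393) and Col11a1 (-1.35, adjusted p = 0.0304) were lower. Leaving out KO replicate 2 in place of replicate 1 passed the same 5 collagens in WT and 0 in KO. In a fit over the WT libraries alone, 4 of those 5 passed and Col3a1 did not, and 6.9% of all genes passed. The WT values are the same in these fits, and only the estimate of the spread differs. Col5a1 passed the filter only through libraries at 44 h, so its result here is a description and no support for a difference.

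KO and WT cells were compared at each time, the question of the genotype's effect. At 44 h the type I, III and V chains had lower means in KO than in WT, and at 0 h Col27a1 was higher and Col6a4 lower in KO, but none of the 20 passed in either comparison. In limma's fit 0 collagens passed at 44 h, and 0.0219% of all genes passed. At an unadjusted p under 0.05 there were 0 collagens, beside 1340 of all 13688 tested genes. At 0 h 0 passed, and 0.0365% of all genes passed. There 2 collagens were at an unadjusted p under 0.05, beside 1326 of all tested genes. The median collagen differed by -0.32 (log2) at 44 h, against 0.05 over all tested genes, and by 0.18 at 0 h, against 0.03 over all. The 0 h median was -0.06 without KO replicate 1 and -0.00029 without WT replicate 1.

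At 44 h 7 of the 20 collagens lay lower in both KO libraries than in both WT libraries, against 15.1% of all tested genes: Col1a1, Col1a2, Col4a5, Col5a2, Col15a1, Col16a1 and Col27a1. Col6a6 and Col13a1 lay higher, 2 of the 20, against 23.9% of all genes. Col15a1 had passed the filter only through the WT libraries at 44 h, so it had to lie lower in KO. By KO replicate 2 alone, a count added after the values were seen, 10 of the 20 lay below both WT libraries, against 28.4% of all genes, and 7 above both, against 41.9%. All 7 tested fibrillar collagens had a lower KO mean, with a median of -0.52. Col1a1 averaged 12.8 ± 8.40 FPKM in KO and 21.7 ± 3.78 FPKM in WT at 44 h (SD, n = 2 each), a difference of -0.86 (SE 0.565, limma adjusted p = 0.620), which was -0.19 without KO replicate 1 and -1.52 without KO replicate 2. Without KO replicate 1 the collagen median was -0.06 and 0 collagens passed. Without KO replicate 2 it was -0.52, and Col5a1 (-1.23, adjusted p = 0.0452) and Col18a1 (-1.25, adjusted p = 0.0485) passed, as did 5.85% of all genes. Without KO replicate 1 the differences of these genes were -0.05 (Col5a1) and 0.25 (Col18a1). Col5a1 had reached 1 FPKM only in both WT libraries and KO replicate 2 at 44 h. Its difference without that replicate is therefore a description.

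At 0 h 5 of the 20 collagens lay higher in both KO libraries (Col4a3, Col6a6, Col13a1, Col18a1 and Col27a1), against 27.3% of all tested genes, and 4 lay lower (Col4a6, Col5a2, Col6a4 and Col11a1), against 19.1%. These shares are near those over all genes. Col27a1, a fibrillar collagen of cartilage and other tissues, was at 4.66 and 2.96 FPKM in KO and 1.73 and 1.94 FPKM in WT (0.74, SE 0.248, limma adjusted p = 0.442). Col6a4 was at 2.51 and 0.919 FPKM in KO and 3.96 and 3.62 FPKM in WT (-0.88, SE 0.331, adjusted p = 0.473). Col4a3 was at 3.54 and 3.90 FPKM in KO and 2.68 and 2.37 FPKM in WT.

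The difference between the KO and the WT time differences was tested as an interaction. Limma passed 0 of the 20 collagens and 0.0438% of all genes, with 1 collagen, Col27a1, at an unadjusted p under 0.05. Col27a1 was at 0.705 and 1.17 FPKM in KO at 44 h and 1.39 and 1.18 FPKM in WT at 44 h, and its KO time difference minus the WT one was -0.99 (log2, SE 0.350, adjusted p = 1.00). For Col1a1 the interaction was -1.55 (SE 0.799, adjusted p = 1.00), and -0.88 without KO replicate 1 at 44 h. The collagen median was -0.32, against -0.01 over all tested genes, and 18 of the 20 collagens were below 0. It was -0.23, with 14 of the 20 below 0, without KO replicate 1 at 44 h, and -0.22, with 13 of the 20 below 0, without the untreated KO replicate 1. Leaving out the second untreated library gave -0.54 (KO) or -0.49 (WT).

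Members under the filter were low throughout, the highest value being 1.16 FPKM (Col25a1). Col4a4, at 0.302 to 1.06 FPKM, and Col25a1, at 0.321 to 1.16 FPKM, reached 1 FPKM in 1 library each, while Col15a1, Col13a1 and Col16a1 were the lowest to pass, with a second highest library of 1.17, 1.26 and 1.35 FPKM. Col4a4, Col6a5, Col10a1 and Col23a1 lay lower in all 4 libraries at 44 h than in all 4 at 0 h, 4 of the 21, against 3.27% of the 7654 genes under the filter with a value above 0. A gene listed at 0 in any 0 h library, such as Col2a1, could not count, so that share is no close match. Among the others were the FACIT chains Col12a1 (0.166 to 0.520 FPKM), Col14a1 (0.0706 to 0.355 FPKM), Col19a1, Col20a1 and Col22a1, and the vessel and eye collagens Col8a1 and Col8a2. The rest were Col5a3, Col7a1 (the anchoring fibril collagen of skin), Col17a1, Col24a1 and Col28a1. In 6 of the 21, among them Col2a1 and Col9a1, at least 1 library was listed at 0.

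Genes that make and process collagen did not pass the test either, and 0 of the tested members of any of these lists did in any of the 5 comparisons. Of 24 tested assembly genes, Serpinh1, the collagen chaperone, was at 196 and 505 FPKM in KO cells at 44 h and 228 and 334 FPKM at 0 h, and at 478 and 530 FPKM in WT cells at 44 h and 449 and 504 FPKM at 0 h. P4hb, a prolyl hydroxylase subunit, lay between 525 and 774 FPKM. The median of the assembly list was 0.10 in KO and 0.02 in WT for 44 h against 0 h. Of 8 tested processing genes, Pcolce, the enhancer of procollagen C-proteinase, was at 38.7 and 228 FPKM in KO at 44 h and 53.7 and 45.7 FPKM at 0 h, and at 226 and 282 FPKM in WT cells at 44 h and 36.4 and 47.9 FPKM at 0 h. Its difference was 0.92 (SE 0.698, limma adjusted p = 0.483) in KO and 2.57 (SE 0.698, adjusted p = 0.113) in WT. KO replicate 1 at 44 h lay below both KO libraries at 0 h for Pcolce, as it did for the type I and III chains. Adamts2, the N-proteinase of types I and III, was at 68.3 and 16.7 FPKM in KO at 44 h and 106 and 84.5 FPKM at 0 h, and at 32.4 and 46.4 FPKM in WT cells at 44 h and 117 and 155 FPKM at 0 h. Adamts2 was lower at 44 h in all 4 libraries. Among 12 fibril-associated genes, Sparc, a collagen-binding matricellular protein, was at 107 and 409 FPKM in KO at 44 h and 138 and 95.6 FPKM at 0 h, and at 541 and 589 FPKM in WT cells at 44 h and 121 and 122 FPKM at 0 h. Of 7 tested receptors, Ddr1, a collagen-activated kinase, was at 7.21 and 15.1 FPKM in KO at 44 h and 24.6 and 13.0 FPKM at 0 h, and at 11.2 and 9.37 FPKM in WT cells at 44 h and 16.9 and 22.1 FPKM at 0 h.

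Marker levels of other cells differed between the groups too. The 17 theca and stroma markers summed to 251 and 429 FPKM in KO cells at 44 h and 157 and 107 FPKM at 0 h, and to 425 and 385 FPKM in WT cells at 44 h and 147 and 138 FPKM at 0 h. Of the 14 tested, 9 had a higher mean at 44 h in KO and 12 in WT, and 0 passed. Cyp17a1, Pdgfra and Insl3, which define theca and stroma, were above 0 in every library. In bulk samples fewer cells of a type and less RNA per cell cannot be told apart. The 7 tested and 4 untested fibrillar collagens summed to 33.1 and 70.9 FPKM in KO at 44 h and 65.4 and 45.1 FPKM at 0 h, and to 71.3 and 79.5 FPKM in WT cells at 44 h and 33.6 and 55.9 FPKM at 0 h. The theca and stroma sum of KO replicate 1 at 44 h was above both KO libraries at 0 h, whereas its fibrillar sum was below both. Of the 17 markers 2, Cyp17a1 and Dcn, were above both KO libraries at 0 h in it, and 7 were below both (Pdgfrb, Gli1, Gli2, Lum, Mfap5, Enpep and Wnt5a). The other 15 markers summed to 68.2 and 184 FPKM in KO at 44 h and 110 and 62.3 FPKM at 0 h, and to 232 and 233 FPKM in WT cells at 44 h and 103 and 107 FPKM at 0 h. Cyp17a1 and Dcn were set aside after their values were seen. Of the 15 left, Vim and Aldh1a1 had the highest levels and made up most of the sum in WT at 44 h. At that time Vim was at 16.0 and 66.0 FPKM in KO and 73.5 and 58.9 FPKM in WT. Aldh1a1 was then at 24.5 and 69.8 FPKM in KO and 113 and 137 FPKM in WT. Dcn, a fibril-binding proteoglycan of stroma, was at 101 and 120 FPKM in KO at 44 h and 45.5 and 35.7 FPKM at 0 h, and at 56.4 and 54.4 FPKM in WT cells at 44 h and 22.7 and 29.6 FPKM at 0 h. The ratio of Col1a1 to Dcn was 0.0679 and 0.155 in KO at 44 h and 0.374 and 0.309 at 0 h, and 0.338 and 0.449 in WT at 44 h and 0.203 and 0.469 at 0 h. It was lowest in both KO libraries at 44 h, a ratio chosen after its values were seen.

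Smooth muscle markers summed to 43.0 and 58.5 FPKM in KO at 44 h and 64.3 and 33.6 FPKM at 0 h, and to 82.6 and 87.8 FPKM in WT cells at 44 h and 58.1 and 60.5 FPKM at 0 h, with 5 of 9 tested genes higher at 44 h in KO and 6 in WT. Endothelial markers summed to 32.6 and 76.0 FPKM in KO at 44 h and 36.1 and 28.2 FPKM at 0 h, and to 50.6 and 70.2 FPKM in WT cells at 44 h and 23.8 and 27.1 FPKM at 0 h, with 7 of 9 tested genes higher at 44 h in KO and 8 in WT. Oocyte markers, 15 genes, moved the other way, with 2396 and 1409 FPKM in KO at 44 h and 5162 and 4380 FPKM at 0 h, and 996 and 965 FPKM in WT cells at 44 h and 1822 and 3068 FPKM at 0 h. They were lower at 44 h in both genotypes, as the lower set of collagens was, and 14 of 14 tested markers had a lower mean at 44 h in each genotype. Only Nlrp5, an oocyte maternal-effect gene, passed the test, in KO (-1.94, limma adjusted p = 0.0478). Between genotypes, 14 of 14 tested oocyte markers had a higher mean in KO than in WT, at 0 h and at 44 h. The lower set of collagens was mixed there. At 0 h Col4a3, Col6a6, Col13a1 and Col27a1 lay higher in both KO libraries, and Col4a6, Col6a4 and Col11a1 lower. At 44 h Col6a6 and Col13a1 lay higher, and Col4a5 and Col27a1 lower. Surface epithelium, immune and oviduct markers also differed between libraries, and the oviduct gene Ovgp1 was at 3.04 and 279 FPKM in KO at 44 h and 366 and 6.05 FPKM in WT at 44 h. The part of any of these cells in the collagen levels was not tested.

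**Figure D5:**
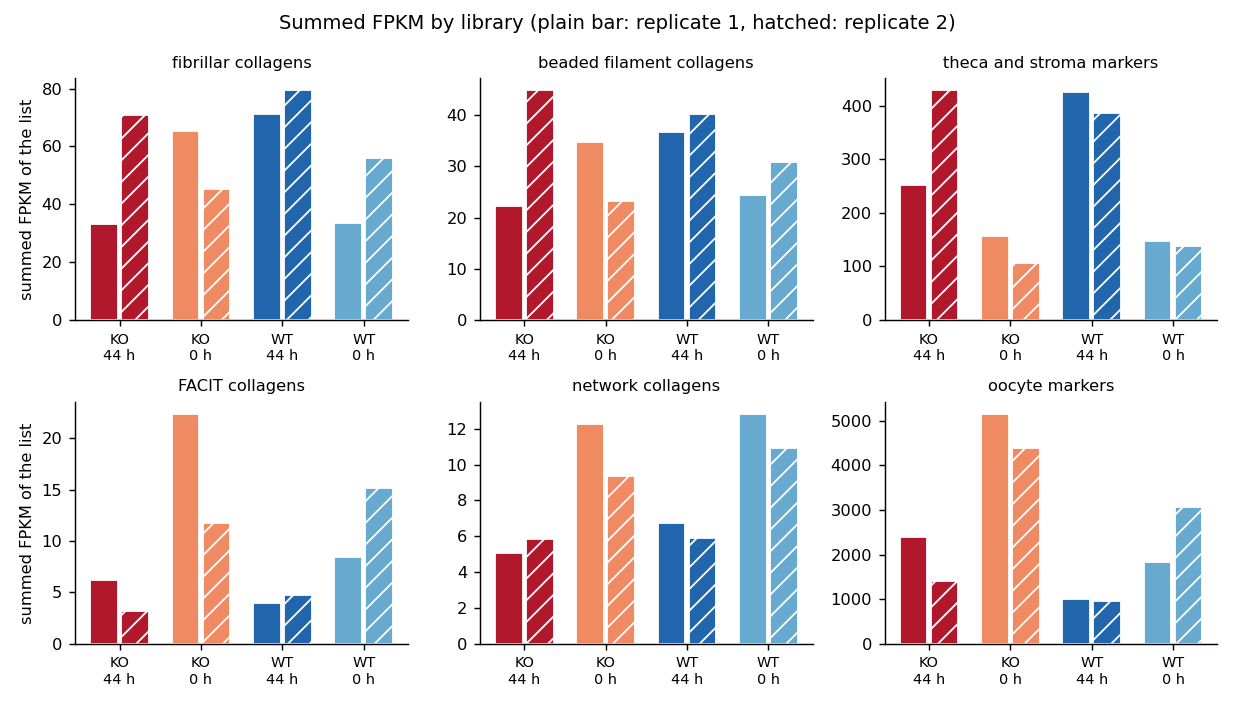
Summed FPKM in each library of 4 collagen classes and of the theca and stroma and the oocyte marker lists (plain bars replicate 1, hatched bars replicate 2; axes start at 0 and differ between panels). Fibrillar sums and theca and stroma sums are higher at 44 h in WT, where the FACIT, network and oocyte sums are lower; in KO replicate 1 at 44 h the fibrillar sum is 33.1 FPKM and the theca and stroma sum 251 FPKM, of which Cyp17a1 and Dcn make up 183 FPKM.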

How the data were processed

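FPKM values of 23235 genes in 8 libraries were deposited by the authors as 1 table. Per the submitters' processing notes, the tools were TopHat2 2.1.1 and Cufflinks 2.2.1 and the build mm9, without a stated role. The labels named a TruSeq and a TruePrep kit; strand use in counting is not given in the sources used here. Col3a1, Col4a3, Col5a1, Col6a4, Col6a6 and Col15a1 share exonic bases with another gene in GENCODE vM21, so their values could include its reads. A low FPKM has few reads behind it; reads per gene are not given.

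Log2(FPKM + 1) values of the 13688 genes with at least 1 FPKM in at least 2 libraries were fitted with limma 3.58.1 in R 4.3.3 (4 group means, 4 residual degrees of freedom, trended empirical Bayes, two-sided, Benjamini-Hochberg over all genes, 5 comparisons), and genes passed at an adjusted p under 0.05. The scale understates differences of low genes. The fit was tested on simulated data. Every collagen that passed the filter is named, with library values for those averaging 5 FPKM or more, or with libraries of a group over 4-fold apart; other genes came from lists, by highest mean. The members and lists were chosen with earlier results of these data known. The planned protein stretches are not used here; promoters from RefSeq, GRCm38.p6, which the plan had left out, were added after the values were seen. Alternatives covered the pseudocount, filter, scaling, replicate block, robust empirical Bayes, groups fitted alone and each library left out in turn.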

Additional observations from a re-analysis of the deposited data

How the results depend on the processing

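With an FPKM of at least 5 in 2 libraries as the filter, the collagen median was 0.43 for KO against WT at 0 h, 0.77 for 44 h against 0 h in WT and -0.76 for the interaction, and with no filter it was -0.0229 for KO against WT at 44 h. Fitting the groups alone passed 4 collagens in the WT time comparison. Leaving out each library in turn gave medians of -0.0643 to 0.361 (KO against WT at 0 h), -0.522 to -0.0621 (KO against WT at 44 h) and -0.45 to 0.24 (KO time), with 0 to 2 collagens passing in KO against WT at 44 h, 0 to 5 in WT time and 0 to 3 in KO time. The 37 single differences taken up here (those printed, and any collagen at an unadjusted p under 0.1) had 568 values under an alternative, of which 542 kept direction and call, 19 newly passed and 7 changed sign, all 7 on leaving out a KO library. With each library left out in turn these spanned -0.907 to 0.423 (Col1a1), -0.478 to 0.96 (Col3a1), -0.147 to 1.03 (Col5a1) and -0.292 to 0.415 (Col5a2) in KO time and -1.25 to 0.252 (Col18a1) in KO against WT at 44 h. Among all genes, 11 passed in WT time, against 945 with WT alone, 1333 and 1330 without KO replicate 1 or 2 at 44 h, 30 with median-of-ratios scaling, 34 with robust empirical Bayes, 7 with the block or quantile normalization and 4 if the second untreated WT library was dropped. In KO time 19 passed, against 1169 and 32 without KO replicate 1 or 2 at 44 h, 35 with robust empirical Bayes, 10 with a pseudocount of 0.1, 9 alone and 3 without KO replicate 2 at 0 h. In KO against WT at 44 h 3 passed, against 801 and 7 without KO replicate 2 or 1, and in the interaction 6, against 78 and 11. Median-of-ratios scaling moved the median of all genes to -0.01 in WT time and 0.03 in KO time, against -0.13 and -0.11, and that of the collagens to 0.16 and -0.03, against 0.06 and -0.17. With quantile normalization the collagen medians were 0.15 and -0.01, with 10 of 20 above 0 in KO, against 8. A pseudocount of 0.1 gave -0.53 for KO against WT at 44 h, against -0.32. Deviations of same-numbered libraries from their group means correlated over genes at -0.113 to -0.00684 between groups. Whether same-numbered libraries share an animal or a batch cannot be told from this. With the replicate block 0 collagens passed in every comparison, the medians were the same (0.06 in WT time), and 6 genes passed in KO time. Why settings differed was not tested.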

Other observations

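Comp, a fibril-organising glycoprotein, was at 0.464 and 18.8 FPKM in KO cells at 44 h and 1.11 and 0.224 FPKM at 0 h, and at 12.7 and 19.8 FPKM in WT cells at 44 h and 0.436 and 0.720 FPKM at 0 h. Loxl1, a crosslinking enzyme, was at 30.3 and 13.9 FPKM in KO at 44 h and 9.27 and 7.95 FPKM at 0 h, and at 12.4 and 18.0 FPKM in WT cells at 44 h and 5.26 and 6.79 FPKM at 0 h. It was higher at 44 h in all 4 libraries, KO replicate 1 included, with a difference of 1.17 (SE 0.363, limma adjusted p = 0.147) in KO and 1.20 (SE 0.363, adjusted p = 0.127) in WT. Both genes were singled out after their values were seen. Emid2, the older symbol of the type XXVI collagen gene, stood outside the symbol rule and lay between 0.178 and 0.543 FPKM.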
